A study of Mus musculus with 8 samples.

Results

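The genes described here are 34 mouse genes of the lysosome, the acid compartment in which cells break down protein, lipid and sugar chains. They were chosen by name as subunits of the lysosomal proton pump, lysosomal hydrolases and their cofactors, lysosomal membrane proteins and the transcription factor TFEB. All 34 had 1 row each among the 23358 rows of the deposited table. All 34 also passed the filter on low values, a mean of at least 1 RPKM (reads per kilobase of gene and per mega-read of library) over all samples, which kept 12129 genes.

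RNA was sequenced in bulk from outflow veins of carotid to jugular arteriovenous fistulas, the vascular access used for haemodialysis, in mice of strain C57BL6J that carried a model of chronic kidney disease. The fistula was made 28 days after the kidney disease, and the veins were taken 3 days later. In the MSC group (n = 4), 250000 mesenchymal stem cells, taken from a same-sex C57 donor, were placed on the outside of the vein directly after surgery, and the vehicle group (n = 4) received vehicle. Both groups carry the kidney disease and the fistula, so neither is a healthy vein. The sources used here do not give how the kidney disease was induced, the age of the mice or whether samples are separate animals. The p-values therefore measure the spread between these samples, which may be technical. RNA of the donor cells cannot be told apart from that of the recipient.

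The vacuolar ATPase (V-ATPase) is a rotary pump that acidifies lysosomes. Its V1 sector in the cytosol splits ATP, and its V0 sector in the membrane carries the protons. The hydrolases work at the acid pH this pump makes, and saposins, cut from prosaposin, present lipids to several of them. TFEB enters the nucleus when lysosomes are stressed or nutrients are short and binds E-box motifs of the CLEAR type (CACGTG core) in front of many lysosomal genes. Macrophages, which digest cell debris in an injured vessel, are rich in lysosomes.

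The samples held 26.9 to 38.2 mega-reads assigned to genes, recovered from the steps of the RPKM values. The tissue label was checked against marker genes. Summed over 6 genes each, smooth muscle markers came to 160 to 288 RPKM, endothelial markers to 302 to 503 RPKM and fibroblast markers to 1058 to 1586 RPKM across the 8 samples. Markers of a vessel wall were thus present in every sample. Skeletal muscle markers were also summed over 6 genes. They came to 415, 45.6, 2.17 and 90.6 RPKM in vehicle 1 to 4 and to 547, 553, 518 and 6.98 RPKM in MSC 1 to 4. Vehicle 1 and MSC 1 to 3 thus lay far above the others, and vehicle 3 and MSC 4 were the lowest. Des, counted among the smooth muscle markers, was also highest in vehicle 1 and MSC 1 to 3. It was at 32.6 RPKM in vehicle 1 and 48.3, 64.3 and 51.9 RPKM in MSC 1 to 3. In the other samples Des was at 6.21 to 11.3 RPKM.

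The CLEAR-type motif was looked for in the 250 bases before the start of each gene, using RefSeq promoters of GRCm38.p6. These tables held 29 of the 34 genes, without Atp6v0d2, Atp6v1b2, Atp6v1c1, Atp6v1h and Asah1. The core CACGTG, which reads the same on both strands, was present in 7 of the 29 (Atp6v0b, Atp6v1a, Gaa, Gla, Glb1, Lamp1 and Mcoln1) and in 6.86% of the 27025 genes with a promoter. The extended TCACGTG, searched on both strands, was present in the same 7 genes and in 3.58% of all genes. The full palindrome TCACGTGA, which contains both shorter motifs, was present in Atp6v1a, Gla and Mcoln1 and in 0.907% of all genes. A match is a description of the letters and does not show binding. The motif is already known in front of many lysosomal genes, so these shares describe the list and test nothing. The stretches below show how the motif is placed, single or repeated, before the RefSeq start of 5 of these genes. They run 5′ to 3′ on the strand of the gene, and capitals mark the core with its flanking T or A.
Atp6v0b, chr4:117887330-117887389, minus strand: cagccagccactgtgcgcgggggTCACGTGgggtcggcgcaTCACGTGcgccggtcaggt
Atp6v1a, chr16:44139361-44139414, minus strand: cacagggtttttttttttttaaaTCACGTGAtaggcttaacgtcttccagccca
Gaa, chr11:119267799-119267852, plus strand: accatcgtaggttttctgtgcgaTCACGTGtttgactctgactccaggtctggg
Glb1, chr9:114401006-114401059, plus strand: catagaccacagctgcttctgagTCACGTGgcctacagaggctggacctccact
Lamp1, chr8:13159076-13159160, plus strand: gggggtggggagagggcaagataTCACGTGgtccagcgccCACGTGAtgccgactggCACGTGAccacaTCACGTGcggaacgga
Lamp1 held 4 matches, Atp6v0b and Gla 2 each, and Atp6v1a, Gaa and Glb1 1 each. Mcoln1 held 2 matches, 71 and 45 bases before its RefSeq start. In GENCODE vM21, the stretches of Gaa, Glb1 and Lamp1 lie outside any gene, and that of Atp6v0b enters its first exon by 4 bases. The Atp6v1a stretch lies in an intron of transcripts that start further upstream. Those of Gla and Mcoln1 are not shown, since 77 bases of the first lie in an exon of Hnrnph2 on the opposite strand and 47 bases of the second in an exon of Mcoln1 itself.

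Expression of the 34 genes in the MSC samples was compared with that in the vehicle samples, the contrast the series was designed for. None of the 34 passed an adjusted p of 0.05 in limma, with adjusted p from 0.193 (Atp6v0d2) to 0.993 (Atp6v0c). Over all genes tested, 28 passed (0.231%), 3 higher and 25 lower in MSC samples. That count moved with every sample left out: 17, 0, 1 and 8 genes passed without vehicle 1 to 4, and 2, 5, 170 and 0 without MSC 1 to 4. In each of those fits 0 of the 34 lysosomal genes passed.

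Without adjustment, 8 of the 34 had a limma p under 0.05 and a higher mean in MSC samples, a share of 23.5% against 10.1% of all genes tested. The 8 were Atp6v0d2, Tcirg1, Atp6v0b, Neu1, Gusb, Laptm5, Psap and Tfeb. None of the 34 had such a p with a lower mean, against 6.36% of all genes. With sample weights 1 of the 34 had one, and without vehicle 4 also 1. The groups did not overlap, with all 4 MSC samples above all 4 vehicle samples, for Tcirg1, Neu1, Laptm5, Psap and Tfeb, a share of 14.7% against 5.61% of all genes. None of the 34 separated in the other direction, against 4.17% of all genes. The log2 fold change was above 0 for 27 of the 34, against 59.5% of all genes, and its median was 0.13 against 0.04. These medians were 0.096 and 0.008 with median-ratio scaling, and 0.093 and 0.041 with sample weights. Without vehicle 2 the 8 became 4 (7.39% of all genes), and without MSC 2 they became 3 (5.63% of all genes). Without vehicle 4, the lowest sample for 16 of the 34 genes, the median was 0.0754 against 0.0201 over all genes. The 34 genes were chosen with earlier results of these data known, and 31 of them lay above the median gene tested in level. The shares are therefore a description and not a test of the 34 as a set.

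**Figure D1:**
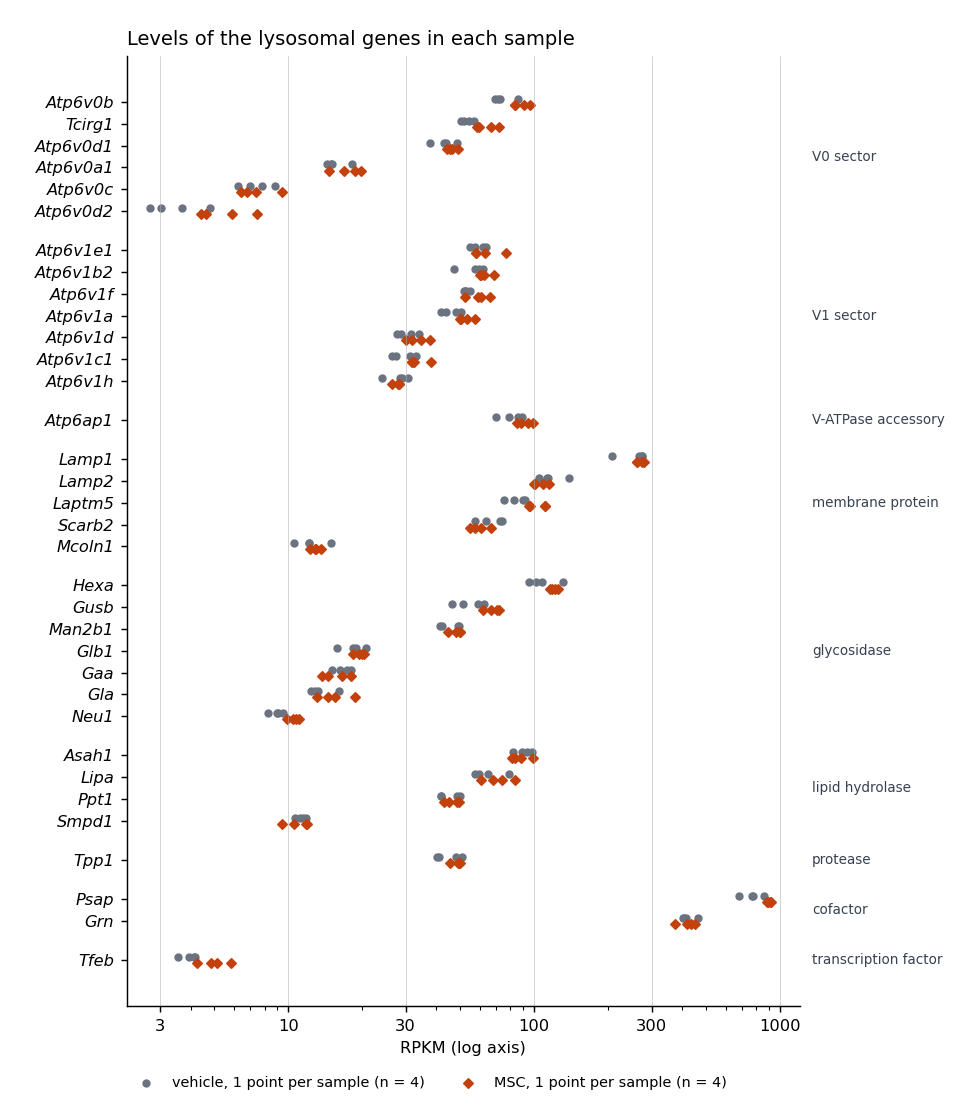
RPKM of each of the 34 genes on a log axis, with 1 point per sample (circles, vehicle, n = 4; diamonds, MSC, n = 4), grouped by role. Psap, at 681 to 917 RPKM, stands to the right of all others, and Atp6v0d2, Tfeb and Atp6v0c lie at the low end, under 10 RPKM.

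Most of these genes were well expressed in the fistula veins and varied little between samples. The median gene of the 34 averaged 48.0 RPKM over the 8 samples, against 8.29 RPKM for the median gene tested, and 31 of the 34 lay above that value. Means ran from 4.48 RPKM for Tfeb to 837 RPKM for Psap. The ratio of the highest to the lowest sample was 1.19 to 2.75, and it was under 1.5 for 29 genes. MSC 1 was the highest sample for 14 genes and vehicle 4 the lowest for 16. Together the 34 genes made up 0.898% to 0.983% of summed RPKM in vehicle samples and 0.985% to 1.06% in MSC samples.

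The V0 sector held 6 of the genes, and all 6 had a log2 fold change above 0, with a median of 0.20. Atp6v0d2 encodes the d2 isoform of the d subunit, which links the membrane ring to the stalk and is known in mice from osteoclasts and macrophages. It was at 4.81, 2.73, 3.70 and 3.04 RPKM in vehicle 1 to 4 and at 7.49, 4.40, 5.88 and 4.62 RPKM in MSC 1 to 4. MSC 1 was the highest sample, vehicle 1 was the highest of its group, and the groups overlapped because vehicle 1 lay above MSC 2 and MSC 4. The means were 3.57 ± 0.92 RPKM in vehicle and 5.60 ± 1.42 RPKM in MSC samples (SD, n = 4 each), with a log2 fold change of 0.53 (SE 0.18, adjusted p = 0.193 by limma). This was the largest difference of the 34 and the only one whose 95% interval, 0.13 to 0.92, reached a 1.5-fold higher level (0.585 on the log2 scale). Atp6v0d1, the widely expressed isoform of the same subunit, was at 42.9, 48.7, 43.7 and 37.8 RPKM in vehicle and at 46.4, 48.9, 44.0 and 45.6 RPKM in MSC samples. The groups overlapped over most of their range, and the log2 fold change was 0.10 (SE 0.09, adjusted p = 0.624 by limma).

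Tcirg1 encodes a3, the a-subunit isoform that osteoclasts need to acidify bone and that macrophages also carry. It was at 54.3, 56.9, 51.9 and 50.4 RPKM in vehicle and at 59.5, 67.0, 58.5 and 71.9 RPKM in MSC samples. All MSC samples lay above all vehicle samples, MSC 3 by the least. The log2 fold change was 0.26 (SE 0.09, adjusted p = 0.215 by limma). Atp6v0a1, the a1 isoform, was at 14.98, 14.4, 18.1 and 14.97 RPKM in vehicle and at 14.7, 18.6, 19.8 and 16.9 RPKM in MSC samples. Vehicle 3 lay above 2 of the MSC samples, MSC 1 lay among the low vehicle samples, and the log2 fold change was 0.15 (SE 0.11, adjusted p = 0.528 by limma).

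Atp6v0b, a proteolipid of the proton-carrying ring, had the highest level of the V0 genes. It was at 72.9, 71.0, 86.0 and 69.4 RPKM in vehicle and at 96.1, 91.2, 83.5 and 83.8 RPKM in MSC samples. The groups overlapped through vehicle 3 alone, and the log2 fold change was 0.24 (SE 0.09, adjusted p = 0.245 by limma). Atp6v0c, the other proteolipid of the ring, averaged 7.46 ± 1.10 RPKM in vehicle and 7.49 ± 1.34 RPKM in MSC samples (SD, n = 4 each). Its log2 fold change was 0.00 (95% interval -0.29 to 0.29), and the groups covered the same range. The level of Atp6v0c is uncertain, since 10.8% of the 50-base words in its exons also occur in other genes, and the gene that shares most of them is the pseudogene Atp6v0c-ps2. That pseudogene had its own row in the table and stayed between 0 and 0.153 RPKM. Atp6v0b shared 8.59% of its 50-base words, with the gene Gm12841 that overlaps it on the opposite strand.

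The isoform make-up of the pump was followed as shares of RPKM, a unit per length, so that isoforms can be set side by side. In vehicle samples Tcirg1 gave 61.0 ± 2.72% of the summed a-subunit RPKM, Atp6v0a2 21.0 ± 1.88% and Atp6v0a1 17.8 ± 1.77%, and Atp6v0a4, known from kidney, gave 0.165 ± 0.0817% (SD, n = 4). Tcirg1 was the most abundant a isoform in all 8 samples. In MSC samples Atp6v0a2 gave 18.8 ± 0.533% and Atp6v0a1 17.4 ± 2.17% (SD, n = 4), and these 2 isoforms did not differ beyond their spread there, with Atp6v0a1 above Atp6v0a2 in MSC 3. The Tcirg1 share was 63.9%, 62.1%, 57.5% and 60.4% in vehicle and 64.8%, 63.4%, 60.1% and 66.2% in MSC samples, and the groups overlapped. The mean difference was 2.63 percentage points (exact permutation test, 2-sided, p = 0.229, adjusted p = 0.229 over 2 shares). The Atp6v0d2 share of the d subunit was 10.1%, 5.30%, 7.80% and 7.45% in vehicle and 13.9%, 8.25%, 11.8% and 9.20% in MSC samples. MSC 1 and MSC 3 lay above every vehicle sample, and vehicle 1 lay above the other 2 MSC samples. The mean share was 7.66 ± 1.96% in vehicle and 10.8 ± 2.55% in MSC samples (SD, n = 4 each), a difference of 3.12 percentage points (exact permutation test, 2-sided, p = 0.143, adjusted p = 0.229). The smallest p that 70 assignments allow is 0.0286.

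**Figure D2:**
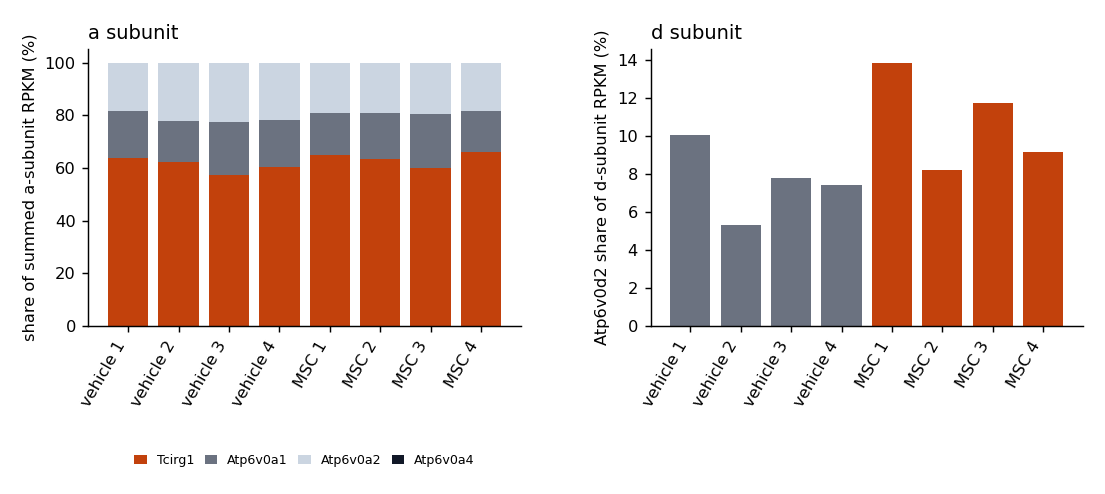
Left, share of each isoform in the summed a-subunit RPKM (%) as stacked bars, 1 bar per sample, with Atp6v0a4 too small to be visible. Right, share of Atp6v0d2 in the summed d-subunit RPKM (%), with grey bars for vehicle and orange bars for MSC samples. Tcirg1 takes 57.5% to 66.2% in every sample, and the Atp6v0d2 share is highest in MSC 1, at 13.9%.

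The V1 sector held 7 genes, of which 6 had a log2 fold change above 0 (median 0.16) and none had an unadjusted p under 0.05. Atp6v1a, the subunit that splits ATP, was at 43.7, 47.9, 50.5 and 41.6 RPKM in vehicle and at 57.3, 50.2, 49.996 and 53.3 RPKM in MSC samples. Only vehicle 3 reached into the range of the MSC samples. The log2 fold change was 0.20 (SE 0.09, adjusted p = 0.314 by limma). Atp6v1e1, part of the outer stalk, had the highest level of the sector. It was at 57.3, 61.8, 63.9 and 55.0 RPKM in vehicle and at 76.7, 63.3, 58.0 and 58.1 RPKM in MSC samples. MSC 1 alone lay above the vehicle range, and the log2 fold change was 0.10 (SE 0.11, adjusted p = 0.696 by limma).

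The other V1 genes overlapped between groups as well. Atp6v1b2, the partner of the catalytic subunit, ranged from 47.3 to 61.8 RPKM in vehicle and from 60.2 to 68.6 RPKM in MSC samples (log2 fold change 0.16). Atp6v1c1, which joins the sectors when the pump assembles, ranged from 26.3 to 33.0 RPKM and from 31.7 to 38.1 RPKM (0.18). The central stalk subunits followed the same pattern. Atp6v1d had a log2 fold change of 0.13 and Atp6v1f one of 0.16. Atp6v1f ranged from 52.0 to 54.6 RPKM in vehicle and from 52.4 to 66.2 RPKM in MSC samples, and 11.2% of its 50-base words occur in other genes. Atp6v1h, which regulates the assembled pump, was the only one of the 14 pump genes described here with a log2 fold change below 0, with 28.0 ± 2.80 RPKM in vehicle and 27.7 ± 0.832 RPKM in MSC samples (SD, n = 4 each; log2 fold change -0.01, 95% interval -0.21 to 0.18). Atp6ap1, an accessory protein that helps the pump assemble, was at 79.0, 86.0, 89.1 and 69.95 RPKM in vehicle and at 98.9, 94.5, 85.3 and 88.1 RPKM in MSC samples. MSC 1 and MSC 2 lay above all vehicle samples and the other 2 did not, with a log2 fold change of 0.18 (SE 0.10, adjusted p = 0.394 by limma).

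Summed over genes, the 6 V0 genes came to 183 to 212 RPKM in vehicle and 218 to 237 RPKM in MSC samples, with no overlap. The 7 V1 genes came to 276 to 322 RPKM and 312 to 372 RPKM and overlapped. All 14 pump genes, Atp6ap1 included, came to 529 to 623 RPKM in vehicle and 625 to 705 RPKM in MSC samples, a gap narrower than the spread within either group. No test was made of these sums.

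**Figure D3:**
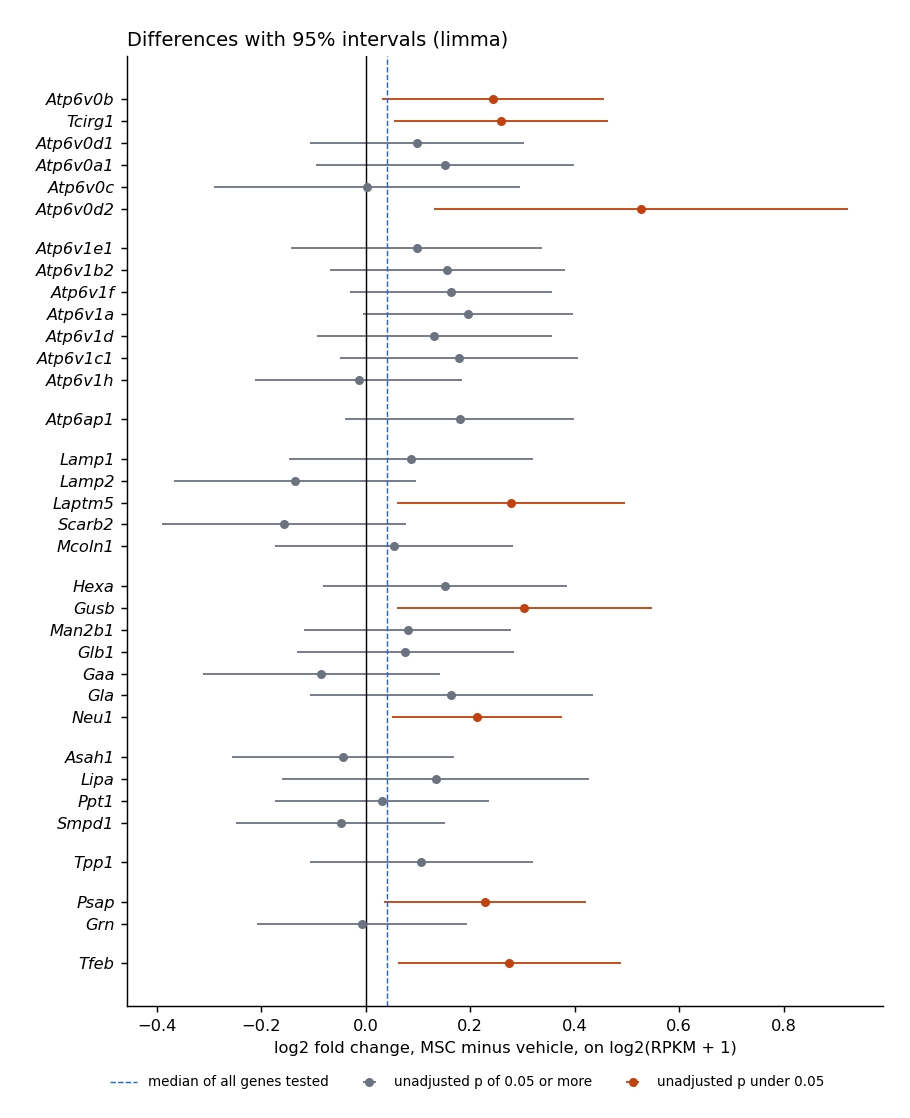
Log2 fold change of each gene, MSC minus vehicle, on the log2(RPKM + 1) scale, with 95% intervals from limma (n = 4 per group), in the same order as the plot of levels. Orange marks the 8 genes with an unadjusted p under 0.05, all to the right of 0, and the dashed line is the median of all genes tested, at 0.04.

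Among the 5 lysosomal membrane proteins, 3 had a log2 fold change above 0. Laptm5, a lysosomal membrane protein of blood cells, was at 91.8, 75.03, 90.0 and 82.4 RPKM in vehicle and at 94.8, 110.3, 96.2 and 111 RPKM in MSC samples. The groups did not overlap, though MSC 1 lay close to vehicle 1. The log2 fold change was 0.28 (SE 0.10, adjusted p = 0.212 by limma). Lamp1, with Lamp2 the main glycoprotein of the lysosomal membrane, was at 274, 273, 268 and 207 RPKM in vehicle and at 275, 280.2, 262 and 262 RPKM in MSC samples. Vehicle 4 stood far below the others, which all lay close together. With all samples the log2 fold change of Lamp1 was 0.09 (SE 0.10, adjusted p = 0.726 by limma), and without vehicle 4 it was -0.01.

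Lamp2, which also serves chaperone-mediated autophagy, and Scarb2, which carries glucocerebrosidase to the lysosome, had the lowest log2 fold changes of the 34. Lamp2 averaged 117 ± 14.9 RPKM in vehicle and 106 ± 7.09 RPKM in MSC samples (SD, n = 4 each), a log2 fold change of -0.14 (SE 0.10, adjusted p = 0.554 by limma). Scarb2 averaged 66.9 ± 7.62 RPKM and 59.8 ± 4.999 RPKM, a log2 fold change of -0.16 (SE 0.10, adjusted p = 0.493 by limma). In both genes the groups overlapped. Mcoln1, the calcium channel of the lysosome, ranged from 10.5 to 14.9 RPKM in vehicle and from 12.2 to 13.6 RPKM in MSC samples, so that the MSC samples lay inside the vehicle range (log2 fold change 0.05).

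Of 7 glycosidases, 6 had a log2 fold change above 0, with a median of 0.15. Neu1, a sialidase that also needs cathepsin A as a partner, was at 9.01, 9.08, 9.47 and 8.24 RPKM in vehicle and at 11.03, 10.5, 10.7 and 9.88 RPKM in MSC samples. The groups did not overlap and were tight. The log2 fold change was 0.21 (SE 0.07, adjusted p = 0.201 by limma). Gusb, the beta-glucuronidase of the lysosome, ranged from 46.4 to 62.7 RPKM in vehicle and from 62.0 to 72.1 RPKM in MSC samples. Vehicle 3 lay just above MSC 3 and was the only vehicle sample to overlap. For Gusb the log2 fold change came to 0.30 (SE 0.11, adjusted p = 0.218 by limma), the largest of the hydrolases.

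Hexa, a chain of the hexosaminidase that degrades gangliosides, had the highest level of the glycosidases. It was at 101, 107, 130.5 and 95.4 RPKM in vehicle and at 121, 125, 116 and 118 RPKM in MSC samples. Vehicle 3 was the highest of all 8, the other vehicle samples lay below every MSC sample, and the log2 fold change was 0.15 (SE 0.10, adjusted p = 0.505 by limma). The remaining 4 overlapped between groups. The alpha-galactosidase gene Gla had a log2 fold change of 0.16, the alpha-mannosidase gene Man2b1 one of 0.08 and the beta-galactosidase gene Glb1 one of 0.08. Gaa, which degrades glycogen in the lysosome, ranged from 15.004 to 17.98 RPKM in vehicle and from 13.7 to 17.9 RPKM in MSC samples, with a log2 fold change of -0.08.

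The 4 lipid hydrolases were centred on 0, with a median log2 fold change of -0.01, and the groups overlapped in each. Lipa, the acid lipase that frees cholesterol from lipoproteins taken up by the cell, was at 64.7, 59.5, 79.3 and 57.2 RPKM in vehicle and at 74.0, 60.8, 67.7 and 83.6 RPKM in MSC samples. Samples of both groups alternated along that range, and the log2 fold change was 0.13 (SE 0.13, adjusted p = 0.649 by limma). Asah1, the acid ceramidase, was at 98.1, 89.1, 93.4 and 81.7 RPKM in vehicle and at 99.2, 83.4, 81.0 and 88.0 RPKM in MSC samples. The ranges were nearly the same, and the log2 fold change was -0.04 (SE 0.09, adjusted p = 0.857 by limma). The thioesterase gene Ppt1 had a log2 fold change of 0.03 and the acid sphingomyelinase gene Smpd1 one of -0.05, with 95% intervals of -0.17 to 0.24 and -0.25 to 0.15.

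Tpp1, the only protease among the 34, removes tripeptides from protein ends. It was at 41.1, 51.0, 47.9 and 40.1 RPKM in vehicle and at 49.7, 49.3, 48.8 and 45.6 RPKM in MSC samples. Vehicle samples lay both above and below the MSC samples, which were close together, and the log2 fold change was 0.11 (SE 0.09, adjusted p = 0.613 by limma). Over the 12 hydrolases the summed level was 468 to 580.3 RPKM in vehicle and 536 to 582 RPKM in MSC samples, and the groups overlapped.

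Psap, the prosaposin gene, had the highest level of the 34, 22nd by mean of the 12129 genes tested. It was at 779.8, 766, 863 and 681 RPKM in vehicle and at 917, 910.2, 889 and 891 RPKM in MSC samples. All MSC samples lay above all vehicle samples and within a much narrower range. The means were 772 ± 74.3 RPKM and 902 ± 14.001 RPKM (SD, n = 4 each), a log2 fold change of 0.23 (SE 0.09, adjusted p = 0.237 by limma). Grn, which encodes progranulin, a binding partner of prosaposin on the way to the lysosome, was at 465, 405, 403 and 414 RPKM in vehicle and at 420.3, 452, 374 and 434 RPKM in MSC samples. Vehicle 1 was the highest and MSC 3 the lowest of the 8, and the log2 fold change was -0.01 (SE 0.09, 95% interval -0.21 to 0.19).

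Tfeb was at 4.19, 3.55, 3.94 and 4.13 RPKM in vehicle and at 4.83, 5.12, 5.84 and 4.26 RPKM in MSC samples. The groups did not overlap, but MSC 4 lay only just above vehicle 1. The means were 3.95 ± 0.289 RPKM and 5.01 ± 0.656 RPKM (SD, n = 4 each), with a log2 fold change of 0.28 (SE 0.10, adjusted p = 0.207 by limma). RNA level does not report where the TFEB protein is, which is the main way its activity is set.

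Other genes of the same pathway, not among the 34, were taken from a list of 72, of which 64 were tested. None passed over all genes in limma. Of the 64, 45 had a log2 fold change above 0 and 19 below, with a median of 0.06. An unadjusted p under 0.05 was reached by 9 in the higher direction (14.1%, against 10.1% of all genes) and by 2 in the lower (3.12%, against 6.36%), both close to the shares over all genes. Among pump subunits, Atp6v0e had a log2 fold change of 0.13 and Atp6v1g1 one of 0.10. Among glycosidases and sulfatases, Galns, which removes sulfate from keratan and chondroitin sulfate, averaged 9.59 ± 0.697 RPKM in vehicle and 12.3 ± 0.446 RPKM in MSC samples (SD, n = 4 each; log2 fold change 0.33, adjusted p = 0.0944 by limma), with no overlap. Naglu, which degrades heparan sulfate, had 0.20.

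Among other hydrolases, the nuclease genes Pld3 and Dnase2a had log2 fold changes of 0.39 and 0.29 (adjusted p = 0.164 and 0.184 by limma). Of the membrane proteins, Mfsd8 had one of -0.40 and Cln3 one of 0.22 (adjusted p = 0.141 and 0.186 by limma). Sort1, which encodes the sorting receptor sortilin and is also abundant in fat cells, stood apart from the rest of the pathway. It was at 10.8, 12.3, 11.4 and 13.5 RPKM in vehicle and at 4.58, 6.91, 8.68 and 5.44 RPKM in MSC samples, with no overlap and a log2 fold change of -0.84 (adjusted p = 0.0638 by limma). Nagpa, which finishes the mannose phosphate tag of hydrolases, had 0.28. Around TFEB, its relative Tfe3 had a log2 fold change of 0.19. Lamtor1, which anchors the mTORC1 docking complex on the lysosome, ranged from 44.3 to 50.9 RPKM in vehicle and from 51.8 to 61.4 RPKM in MSC samples (0.24, adjusted p = 0.213 by limma).

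**Figure D4:**
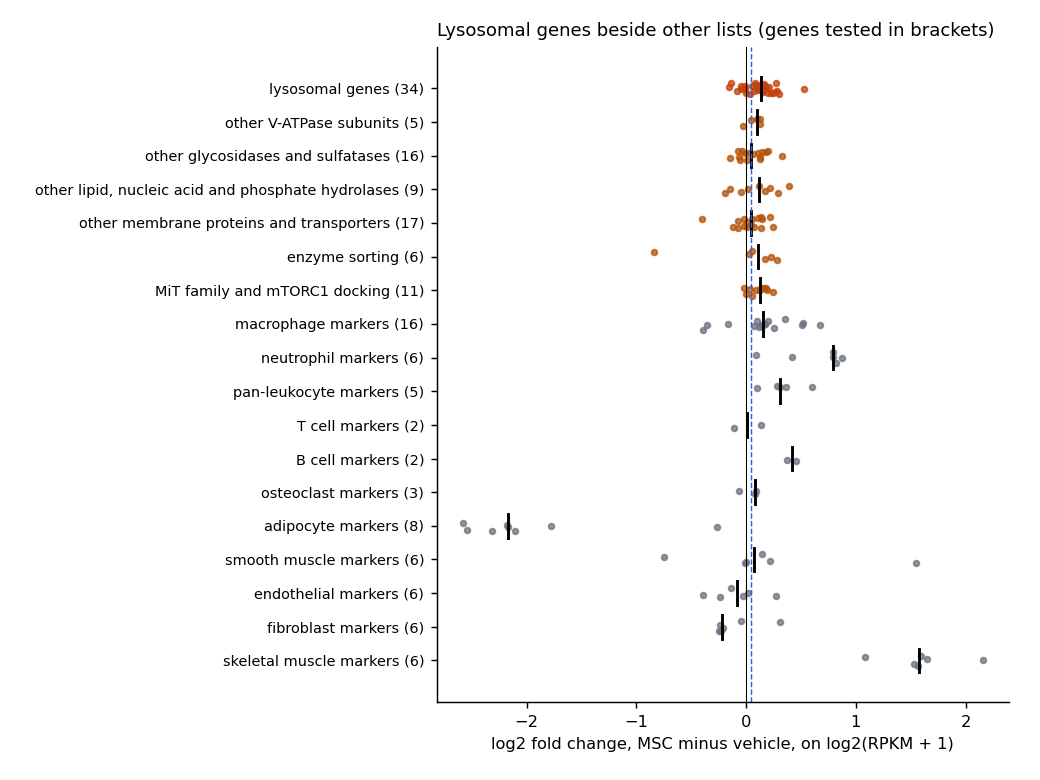
Log2 fold change, MSC minus vehicle, of each gene tested on the log2(RPKM + 1) scale, for the 34 lysosomal genes (top row), other lysosome genes and cell type markers, with the number of genes tested in brackets. Black bars are medians and the dashed line is the median of all genes tested, at 0.04. The 34 genes lie between -0.16 and 0.53, while adipocyte markers have a median of -2.17 and neutrophil markers one of 0.79.

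Among cell type markers, the adipocyte and pan-leukocyte sums separated between the groups, while the macrophage and neutrophil sums overlapped. No marker gene tested passed the adjusted threshold in limma. In bulk tissue, fewer cells of a type and less RNA per cell cannot be told apart. Adipocyte markers (8 genes) summed to 3114 to 4623 RPKM in vehicle and 367 to 1822 RPKM in MSC samples, with all 8 log2 fold changes below 0. Pan-leukocyte markers (5 genes) summed to 686 to 835 RPKM and 882 to 1176 RPKM, without overlap and with all 5 above 0. Macrophage markers (16 genes) summed to 3404 to 4217 RPKM and 3891 to 6146 RPKM. Their log2 fold changes ran from -0.39 to 0.67, with a median of 0.16 and 13 of 16 above 0. The 3 below 0 were Mertk (-0.39), Cd163 (-0.36) and Mrc1 (-0.16). Most of the macrophage sum was Lyz2, the lysozyme of macrophages and neutrophils. Without it, a choice made after seeing the values, the other 15 summed to 1369 to 1854 RPKM in vehicle and 1644 to 2078 RPKM in MSC samples, with vehicle 1 and vehicle 3 above 3 of the MSC samples. Neutrophil markers (6 tested, 7 summed) came to 219 to 803 RPKM and 561 to 1349.5 RPKM, with all 6 above 0. MSC 1, the highest sample for 14 of the lysosomal genes, was also the highest for the macrophage, pan-leukocyte and neutrophil sums. Vehicle 4, the lowest sample for 16 of the lysosomal genes, was at 3505, 787 and 759 RPKM in these sums. Vehicle 1 was the lowest in each of them, at 3404, 686 and 219 RPKM. Without Lyz2 the macrophage sum was lowest in vehicle 4, at 1369 RPKM.

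Markers of osteoclasts, the cells best known for a3 and d2, summed over 7 genes to 63.3 to 101 RPKM in vehicle and 64.4 to 99.7 RPKM in MSC samples. Most of this was the protease gene Ctsk, which other cells also express. Itgb3 ranged from 11.5 to 20.9 RPKM and Nfatc1 from 5.44 to 9.59 RPKM over both groups. The remaining markers of this list, Calcr, Oscar, Dcstamp and Ocstamp, were under 2 RPKM in every sample. Calcr was at most 0.033 RPKM and Oscar at most 0.161 RPKM. Dcstamp ranged from 0.109 to 0.332 RPKM in vehicle and from 0.469 to 1.68 RPKM in MSC samples, with no overlap. These values rest on 10 to 137 reads per sample. Among the genes that were tested, 5.61% separated in that direction. Ocstamp ranged from 0.505 to 0.873 RPKM and from 0.826 to 1.27 RPKM, with vehicle 4 above MSC 3. Both were too low for the filter and were not tested. T cell markers (7 genes) summed to at most 10.9 RPKM and B cell markers (4 genes) to at most 12.5 RPKM. No marker of these lists was at 0 in every sample. The part of these cell types in the lysosomal values was not tested.

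**Figure D5:**
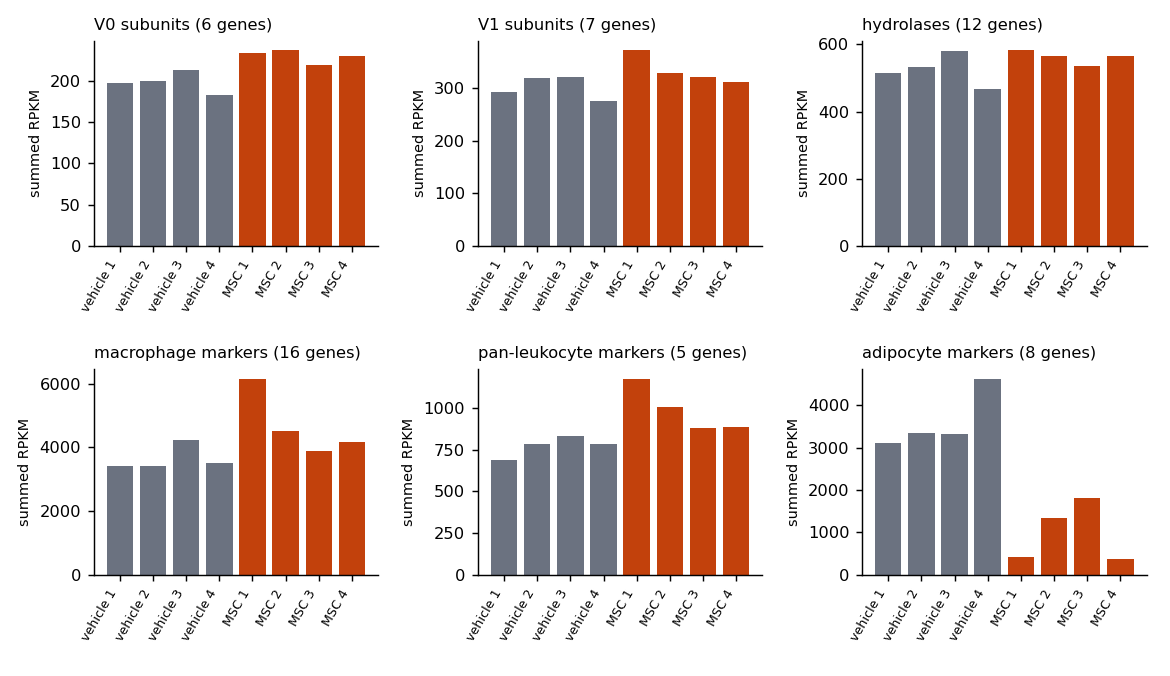
Summed RPKM per sample for 3 groups of the lysosomal genes (top row) and 3 marker lists (bottom row), with grey bars for vehicle and orange bars for MSC samples, each axis starting at 0. The V0 sums and the pan-leukocyte sums do not overlap between groups, and the adipocyte sums are lower in all 4 MSC samples, at 367 to 1822 RPKM.

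In GRCm38 coordinates of GENCODE vM21, the protein-coding gene Atp6v0d2 spans 19876841 to 19922605 on chromosome 4 and Tcirg1 spans 3896050 to 3907133 on chromosome 19. Neu1 lies at 34931253 to 34935953 and Tfeb at 47737030 to 47792419 on chromosome 17. Laptm5 lies at 130913125 to 130936141 on chromosome 4, Gusb at 129989011 to 130003049 on chromosome 5 and Psap at 60277627 to 60302597 on chromosome 10. Exons of 7 of the 34 overlap a gene on the opposite strand: Atp6v0b with Gm12841, Atp6v1e1 with Slc25a18, Atp6v1h with Rgs20, Lamp1 with Grtp1, Hexa with Tmem202, Ppt1 with Cap1 and Grn with Fam171a2. Glb1 shares exon sequence with Tmppe on its own strand. Without the use of strand, or on a shared strand, the reads of overlapping genes are not separable, so these levels are uncertain. More than 2% of 50-base words were shared with other genes in 7 of the 34, among them Hexa (10.6%), Lamp1 (5.90%), Glb1 (4.26%) and Ppt1 (2.18%), and none was shared in 15, which include Atp6v0d2, Neu1, Tfeb, Laptm5, Gusb and Psap.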

How the data were processed

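The authors deposited RPKM values, 1 column per sample, on the build mm10 according to the submitters' processing notes. Libraries were made from 0.5 µg of total RNA with a TruSeq V2 kit, per the labels' protocols. The sources used here name no aligner, counting tool, annotation or use of strand. Depths came from whole reads, which the steps of low RPKM values gave back for 100.0% of 143006 values above 0 (tolerance 0.001 reads).

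RPKM are not counts, so log2(RPKM + 1) was tested 2-sided in limma 3.58.1 under R 4.3.3, with a trend of variance on mean and no covariate. The fit covered 12129 genes whose mean was 1 RPKM or more, with Benjamini-Hochberg adjustment over all of them and a threshold of 0.05. Fold changes on this scale understate the change of low genes. Isoform shares were compared by exact permutation of the 8 samples (Python 3.11.15, scipy 1.17.1). Code was tested on simulated data.

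The 34 genes and all lists were chosen with earlier results of these data known. All 34 are named. Values in every sample are given for the a and d isoforms and, in each role, for the gene with the smallest p and that with the highest mean. For other lysosome genes the 2 with the smallest p per role are given. Of 84 marker genes 83 were found. Salivary and thyroid markers (5 genes) summed to 9.95 to 15.8 RPKM in vehicle and 1.34 to 8.46 RPKM in MSC samples.

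Promoters are from RefSeq (GRCm38.p6) and exons from GENCODE vM21. The alternatives covered pseudocount, filter, scaling, replicate block, variance trend, sample weights, voom on recovered reads and each sample left out. The count of genes with an unadjusted p under 0.05 was followed through them after the data had been seen.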

Additional observations from a re-analysis of the deposited data

Results flagged for a closer look

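In 5 of 72 groups of 4 samples checked, 1 sample stood apart from the other 3 by Dixon's test at the 95% level, which chance gives in about 1 in 20 groups. Atp6v0a1 was at 18.1 RPKM in vehicle 3, against 14.4 to 14.98 RPKM in the other vehicle samples. Atp6v1c1 was at 38.1 RPKM in MSC 1, against 31.7 to 32.4 RPKM in the other MSC samples. Atp6v1h was at 26.4 RPKM in MSC 4, below the 28.0 to 28.3 RPKM of the others. Lamp1 was at 207 RPKM in vehicle 4, below the 268 to 274 RPKM of the other vehicle samples. Grn was at 465 RPKM in vehicle 1, above the 403 to 414 RPKM of the others.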

How the results depend on the processing

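None of the 34 lysosomal genes passed the adjusted threshold in limma with all samples or under any of 15 alternatives. For the 8 genes with an unadjusted p under 0.05, every alternative kept the direction, and Atp6v0d2 had log2 fold changes from 0.398 to 0.649 and adjusted p from 0.0934 to 0.378. The count of all genes passing was 10 with a pseudocount of 0.1, 1 with no filter on low values, 93 with median-ratio scaling (14 higher and 79 lower, against 3 and 25), 73 with sample weights and 37 with voom on recovered reads. Leaving out single samples gave 0 to 170 genes passing. From 3 (without MSC 2) to 10 (without vehicle 3) of the 34 had an unadjusted p under 0.05 and a higher mean. The share over all genes was also lowest and highest in those fits, at 5.63% and 13.97%. With a lower mean, the count was 1 with sample weights and 1 without vehicle 4, and 0 in all other fits. With the replicate block 0 genes passed (1768 with an unadjusted p under 0.05). Same-numbered samples deviated with correlations of 0.143, -0.00282, -0.332 and -0.122. Differently numbered samples of the 2 groups gave -0.246 to 0.435. These few values cannot decide whether the numbers pair the samples. With 4 pairs, the exact sign-flip test, 2-sided, gave p = 0.125 for both isoform shares, the smallest it allows.

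Of the 34 genes, 27 kept the sign of their log2 fold change throughout. Atp6v0c reversed to -0.0299 with median-ratio scaling, -0.00638 with sample weights and -0.0402 with voom. Ppt1 reversed to -0.00587 with scaling and -0.0295 with sample weights, and Grn to 0.0226 with sample weights. Leaving out single samples, log2 fold changes ran from -0.0995 to 0.0760 for Atp6v0c, -0.00679 to 0.0758 for Ppt1, -0.0429 to 0.0474 for Grn, -0.0825 to 0.0296 for Atp6v1h, -0.0161 to 0.139 for Mcoln1, -0.0104 to 0.123 for Lamp1 and -0.0908 to 0.0153 for Smpd1. Every reversed value had an adjusted p of 0.705 or more in limma, and the cause was not tested.

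Each of the 34 genes had at least 299 reads in every sample.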
